A study of Mus musculus with 6 samples.

Results

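The genes described here are the 6 type IV collagen genes of the mouse, Col4a1, Col4a2, Col4a3, Col4a4, Col4a5 and Col4a6, in a list of H3K9me3 peaks that the authors kept as specific to wild type (WT) Bergmann glia relative to Setdb1 mutant Bergmann glia. Which background the peaks were called against was not stated, and no signal in the mutant libraries was at hand. A peak was counted for a gene when the deposited list named that gene as the one with the nearest transcription start site (TSS). By this rule 12 of the 34673 WT-specific peaks belonged to the family. Of these, 4 named Col4a1, 6 named Col4a2 and 2 named Col4a4, while Col4a3, Col4a5 and Col4a6 were named by 0 peaks.

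Bergmann glia (BG) are radial glia of the cerebellar cortex, and their H3K9me3 was profiled by ChIP-seq in C57BL/6 mice at postnatal day 10, with 2 libraries from Setdb1 mutant BG, 2 from WT BG and 2 control libraries. Mutant BG came from animals in which mGFAP-Cre deleted floxed Setdb1, and this Cre acts in cerebellar nerve cells other than Purkinje cells, so the loss was not restricted to BG. BG of both genotypes were sorted by the Nestin-driven NesGFP reporter, and the controls are labelled as input in one field and as IgG in another. The deposited list was made from merged libraries and gives a position, a score and an annotation for each peak but no value per library, so neither depth nor a spread between replicates can be given, no test was run, and the 95% intervals below cover counting error only. Peaks of 1 gene pair are neighbours and not independent draws.

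Type IV collagen is the network-forming collagen of basement membranes. Its α chains wind into a triple helix in which glycine recurs at regular steps along each chain, and the trimers join end to end into a sheet that carries laminin, nidogen and perlecan. The genes lie in head-to-head pairs that are read in opposite directions from a shared region. Col4a1 and Col4a2 encode the chains found in nearly all basement membranes, whereas the chains of Col4a3, Col4a4, Col4a5 and Col4a6 are known from kidney, lung, smooth muscle and other tissues. In the cerebellum a basement membrane lies under the pia, where BG endfeet end. H3K9me3, histone H3 trimethylated at lysine 9, marks silent chromatin and is written by enzymes that include Setdb1.

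The sequences of the chromosome 8 pair are given first, because the reading of 10 of the 12 peaks turns on them. All are from RefSeq GRCm38.p6, the build called mm10 in the list. The starts of Col4a2 (plus strand, chr8:11312805) and Col4a1 (minus strand, chr8:11312826) overlap by 22 bases, shown on the plus strand with the first base of each transcript in capitals.
Col4a2 and Col4a1 starts, chr8:11312805-11312826: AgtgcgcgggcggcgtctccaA
Because these start sites cross, a position inside Col4a1 before chr8:11312805 is nearer to the start of Col4a2, and a position inside Col4a2 after chr8:11312826 is nearer to the start of Col4a1. The highest-scoring peak of the family covered Col4a1 exons 3 and 4, shown on the minus strand in reading frame with glycine codons in capitals.
Col4a1 exon 3, chr8:11247006-11247095: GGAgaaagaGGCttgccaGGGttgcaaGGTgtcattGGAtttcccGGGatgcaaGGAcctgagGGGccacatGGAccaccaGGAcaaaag
Col4a1 exon 4, chr8:11246863-11246907: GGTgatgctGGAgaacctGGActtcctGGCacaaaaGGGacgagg
Exon 3 holds 30 codons, of which 10 are glycine, and exon 4 holds 15 codons, of which 5 are glycine. Every gap between neighbouring glycines was 3 codons, in 9 of 9 cases in exon 3 and in 4 of 4 in exon 4, the repeat of the collagen helix. The 4 peaks in intron 3 of Col4a2 form the densest group in the family. The peak left out below, at chr8:11320557-11321188, held 5 CpG over its 631 bp, against 10, 7 and 8 over the 500 bp of each peak shown. The central 200 bases of the other 3 follow on the plus strand, with CpG dinucleotides in capitals, to show the base content of these 3 peaks only.
Peak at chr8:11337670-11338170: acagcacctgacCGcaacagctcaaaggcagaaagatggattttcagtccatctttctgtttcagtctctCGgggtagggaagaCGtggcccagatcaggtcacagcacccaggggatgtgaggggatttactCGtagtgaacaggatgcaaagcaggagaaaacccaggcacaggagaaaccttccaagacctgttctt
Peak at chr8:11342563-11343063: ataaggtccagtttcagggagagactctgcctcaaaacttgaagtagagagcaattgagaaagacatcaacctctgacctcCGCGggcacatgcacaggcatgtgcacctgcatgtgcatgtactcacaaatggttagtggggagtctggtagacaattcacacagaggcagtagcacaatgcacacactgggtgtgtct
Peak at chr8:11346040-11346540: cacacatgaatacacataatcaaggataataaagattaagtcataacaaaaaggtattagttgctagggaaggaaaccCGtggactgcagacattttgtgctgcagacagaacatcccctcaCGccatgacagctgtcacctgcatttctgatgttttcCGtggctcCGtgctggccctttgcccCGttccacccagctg

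The name given to a peak and the gene it lay in were different genes for most of the chromosome 8 peaks. All 4 peaks named Col4a1 were centred in Col4a2, and of the 6 peaks named Col4a2, 4 were centred in Col4a1 and 2 lay beyond the 3′ end of Col4a1. The peaks that named Col4a1 and also lay in it numbered 0, and the same count for Col4a2 was 0. Of the 12 peaks, only the 2 named Col4a4 lay in the gene they named. Of the 10 that the list classes within a gene, 8 (80%, 49.0 to 94.3) named another gene. Among all other peaks classed within a gene, 4119 of 13192 (31.2%) did. By position, 13 of the 15 peaks centred in a family gene named another gene, 8 of them the partner and 5 a gene outside the family. For the 8 the name was fixed by the crossed start sites, so the count is a description. The annotation held 179 protein-coding pairs whose starts overlap by up to 1 kb, 76 of them with a peak in either gene, and 58 of their 168 peaks (34.5%) named the partner. Col4a1 and Col4a2 held 10 of these peaks, with 8 named for the partner and 0 for the gene itself. Amigo2 and Pced1b held 7, all 7 named for the partner, whereas Slc39a11 and Cog1 held 19, with 11 named for their own gene and 0 for the partner. Recomputing the nearest start site gave the same names for all 12 peaks.

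**Figure D1:**
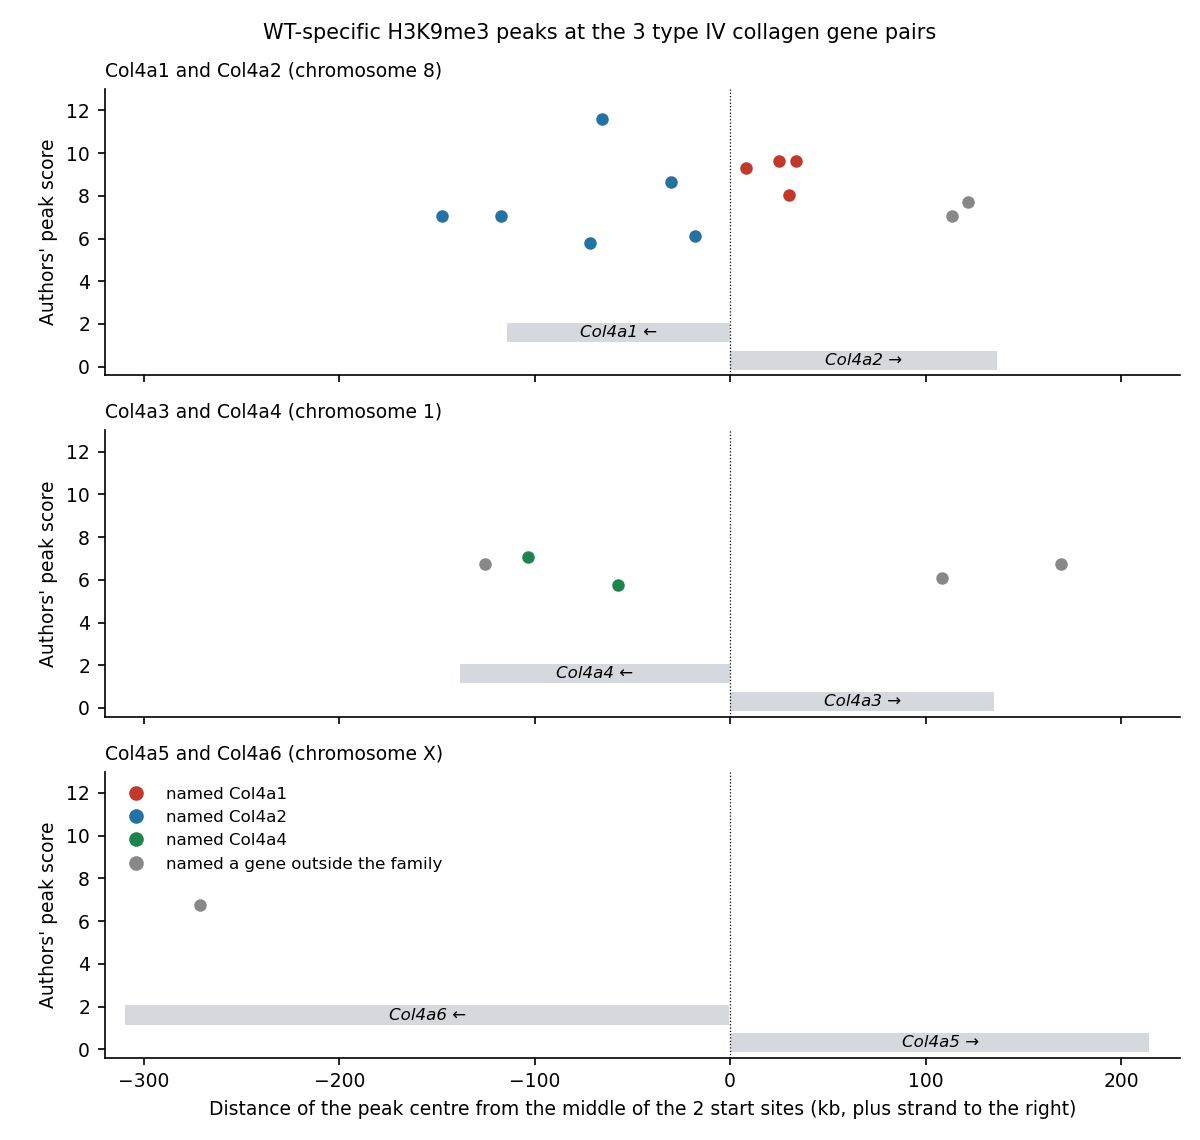
WT-specific H3K9me3 peaks (points) by the distance of their centre from the middle of the 2 start sites of each pair, in kb (x axis), and by the authors' score (y axis), with gene bodies as grey bars and arrows for the direction of transcription. Colours give the gene each peak names: in the top panel the Col4a2 points lie on the Col4a1 side and the Col4a1 points lie in Col4a2.

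Counted by position, 15 peaks were centred in the family. Col4a1 held 4, Col4a2 6, Col4a4 3, Col4a3 1 and Col4a6 1, and Col4a5 held 0. Thus 3 of 6 genes had a peak by name, where 49.1% of 21774 protein-coding genes did, and 5 of 6 had a peak in the body, where 30.8% did. The genes are long, 114 to 309 kb, and among the 1917 protein-coding genes of 100 to 320 kb the same shares were 75.2% by name and 74.5% in the body. Having a peak was thus common among genes of this length. At least 4 peaks in the body were found in 21.2% of these 1917 genes and at least 6 in 9.13%. Col4a1 reached the first of these counts and Col4a2 both. Since Col4a1 and Col4a2 lie at the short end of that range, 968 genes of 100 to 150 kb were also taken, a class chosen after the values were seen. There 13.9% had at least 4 peaks and 4.55% at least 6, and the median gene had 1. Col4a3 and Col4a4 belong to the same class and held 1 and 3 peaks, so 2 of its 4 family members reached 4 and 1 reached 6.

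**Figure D2:**
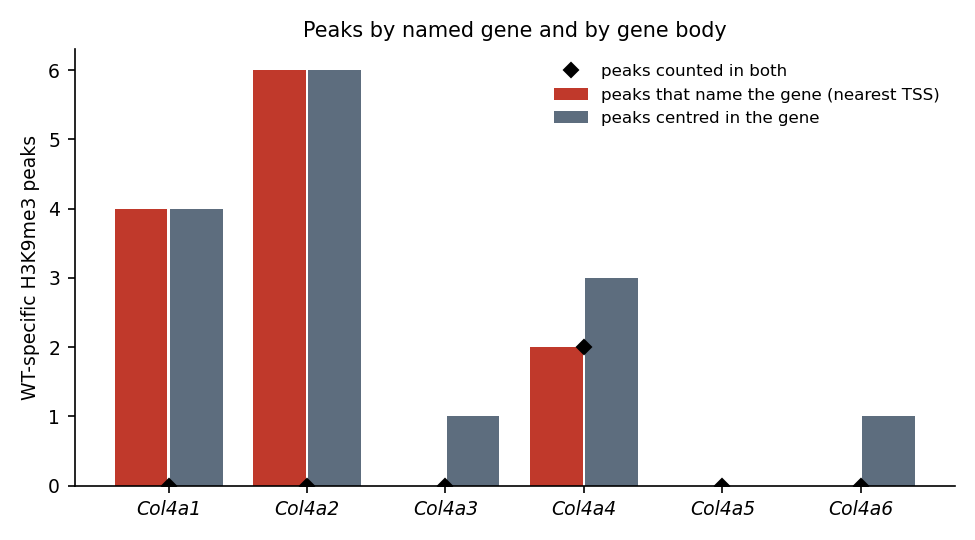
Number of WT-specific H3K9me3 peaks (y axis) for each type IV collagen gene, by the gene the list names (red bars) and by the gene body that holds the centre (grey bars); diamonds count peaks in both. Col4a1 and Col4a2 have 4 and 6 peaks by either count but 0 in common.

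Col4a1, gene 12826, spans chr8:11198423-11312889 on the minus strand and encodes the α1 chain. The 4 peaks centred in it scored 5.78, 6.1, 8.66 and 11.6, and all 4 name Col4a2. The score is the authors' peak score, whose scale was not stated, and the median over the whole list was 7.06. The peak of 11.6, at chr8:11246723-11247374, was the highest of the family and 9.39% of the list scored as high or higher. It was 651 bp wide and covered exons 3 and 4 printed above. The list classes it as non-coding because it takes the annotation of a non-coding transcript, NR_133670, whose exon 3 of 53 is coding exon 3 of 52 in the protein-coding transcript. A peak of 5.78 at chr8:11241048-11241548 had its centre in intron 12 of 51 and covered the 87 bp of coding exon 13. The remaining 2 lay in intron 1, at chr8:11282147-11282647 with a score of 8.66 and at chr8:11294518-11295018 with a score of 6.1 on a B1_Mus1 SINE. Intron 1 is 44.9 kb long and thus held 4.46 peaks per 100 kb (95% exact Poisson interval 0.540 to 16.1), in a window picked for its peaks.

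Beyond the 3′ end of Col4a1 lay 2 intergenic peaks that name Col4a2, from which they were 117 and 147 kb away. Both scored 7.06. The nearer, at chr8:11195438-11195938, was centred on an RMER1A repeat, and the farther, at chr8:11165243-11165743, on no annotated repeat.

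Col4a2, gene 12827, spans chr8:11312805-11449287 on the plus strand and encodes the α2 chain. Of the 6 peaks centred in it, the 4 in intron 3 of 47 name Col4a1 and scored 9.31, 9.63, 8.02 and 9.63 in order from the start site. All 4 were above the list median, and 31.3% of the list or less scored as high. They lay 8.05, 25.1, 30.0 and 33.5 kb from the Col4a1 start, within 25.4 kb of each other. Intron 3 is 40.6 kb long, which gives 9.85 peaks per 100 kb (2.68 to 25.2), again in a window picked for its peaks. The peak at 25.1 kb was centred on an ORR1E element, an LTR of the ERVL-MaLR family, and the other three on no annotated repeat. The peak nearest the start site was 631 bp wide. The other 2 peaks of Col4a2 lay far downstream and name E230013L22Rik. One, at chr8:11425909-11426409, scored 7.06 with its centre in intron 26 and covered the 60 bp of coding exon 26 of 48. The other, at chr8:11434115-11434615, scored 7.7 in intron 31.

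Col4a4, gene 12829, spans chr1:82448419-82587034 on the minus strand and encodes the α4 chain. Its 2 named peaks lay in its own introns. One, at chr1:82483142-82483642, scored 7.06 in intron 35 of 47, on an MTD element of the ERVL-MaLR family, 103 kb from the start site. The other, at chr1:82529045-82529545, scored 5.78 in intron 13, on no annotated repeat, 57.6 kb from the start site. Another peak, at chr1:82461096-82461596 in intron 44, scored 6.74 and names Rhbdd1. Col4a3, gene 12828, at chr1:82586921-82722059 on the plus strand, encodes the α3 chain and was named by 0 peaks. It held 1 peak of score 6.1 in intron 38 of 51, at chr1:82694945-82695445 on an RSINE1 repeat, which names Mff. The start sites used here for Col4a3 and Col4a4, 1 per gene, are 71 bases apart and do not cross, although the outer ends of the annotated genes overlap. Both peaks named Col4a4 kept the name of the gene they lay in.

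Col4a5, gene 12830, at chrX:141475370-141689236 on the plus strand, and Col4a6, gene 94216, at chrX:141165403-141474095 on the minus strand, encode the α5 and α6 chains. Neither was named by a peak. A single peak of score 6.74, at chrX:141203437-141203937, lay in Col4a6 and names Atg4a. This peak had its centre in intron 19 of 44 and covered the 150 bp of coding exon 19 of 45. It was 270 kb from the Col4a6 start. The stretch without a peak around the start sites of this pair measured 618 kb, against 166 kb for Col4a3 and Col4a4 and 26.1 kb for Col4a1 and Col4a2.

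The 3 pairs differed in peak density. The Col4a1 and Col4a2 pair had 10 peaks in 251 kb, or 3.99 per 100 kb (1.91 to 7.33), where chromosome 8 as a whole had 1.42. The Col4a3 and Col4a4 pair had 4 peaks in 274 kb, or 1.46 per 100 kb (0.398 to 3.74), where chromosome 1 had 1.12. The Col4a5 and Col4a6 pair had 1 peak in 524 kb, or 0.191 per 100 kb (0.00483 to 1.06), where chromosome X had 0.743. The counting interval lay above the chromosome value for the first pair and held it for the other 2. It treats peaks as independent, which neighbouring peaks are not, and the genes were chosen with earlier results known. No test of the differences in density was run, and no conclusion is drawn from the intervals.

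**Figure D3:**
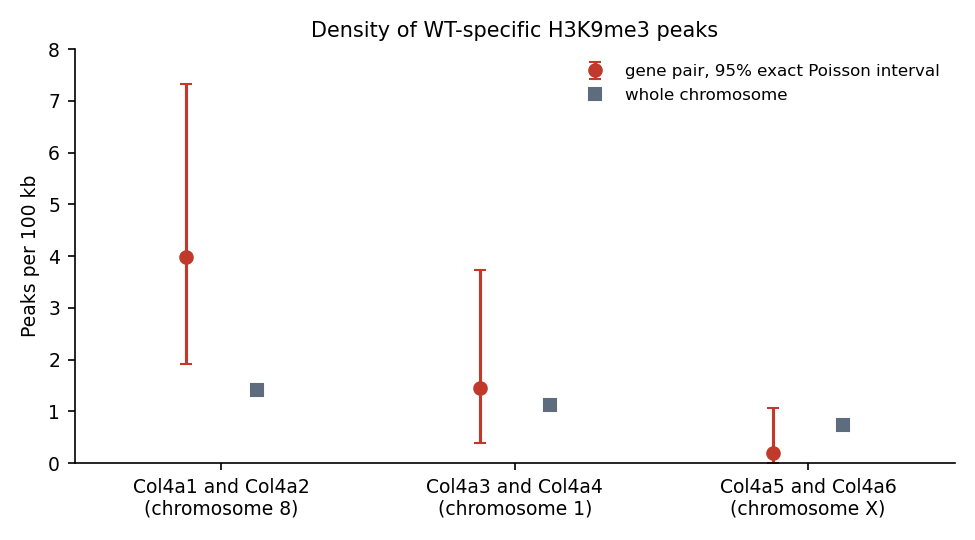
WT-specific H3K9me3 peaks per 100 kb (y axis) in each type IV collagen gene pair (red, with 95% exact Poisson intervals) and over its whole chromosome (grey squares). The pairs run at 3.99, 1.46 and 0.191 and the chromosomes at 1.42, 1.12 and 0.743.

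Scores of the 12 peaks ran from 5.78, which 94.7% of the list reached or passed, to 11.6, which 9.39% did. Their median was 7.54 (95% order-statistic interval 6.1 to 9.63), against 7.06 for all other peaks. At or above the list median lay 9 of 12 (75%, 46.8 to 91.1), against 51.7% of all other peaks. Of these 9, however, 3 had the median score itself, and strictly above it lay 6 of 12 (50%, 25.4 to 74.6), against 42.8%. The 4 peaks named Col4a1 had a median of 9.47, those named Col4a2 one of 7.06, and the 2 named Col4a4 scored 7.06 and 5.78. The 6 peaks above the list median were the 4 in intron 3 of Col4a2, the peak over exons 3 and 4 of Col4a1 and the peak of 8.66 in intron 1 of Col4a1.

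**Figure D4:**
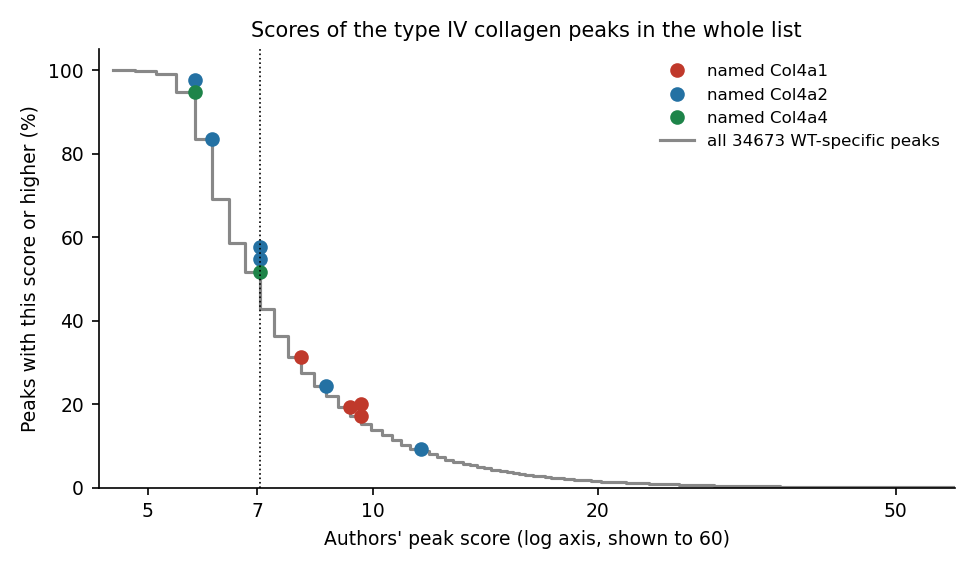
Share of the 34673 WT-specific peaks with a given score or higher (y axis, grey steps) by score (x axis, log), with the 12 type IV collagen peaks as points coloured by the gene they name; points of equal score are set apart upwards and the dotted line is the list median of 7.06. The Col4a1 points sit between 8.02 and 9.63 and the highest point, 11.6, names Col4a2.

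By class, 9 of the 12 peaks were centred in an intron (75%, 46.8 to 91.1), against 34.2% of all other peaks. A high intron share was not particular to this family. It was 14 of 20 (70%, 48.1 to 85.5) for peaks of laminin genes and 8 of 17 (47.1%, 26.2 to 69.0) for those of type VI collagen genes. Intergenic peaks made up 2 of 12 (16.7%), against 59.4%. In a promoter lay 0 of 12, which allows a share of up to 24.2% by the Wilson interval, against 0.805% of all other peaks. Coding exons were overlapped by 2 of 12 (16.7%, 4.70 to 44.8), against 7.96% of all other peaks, a measure chosen after the values were seen. Within 10 kb of the named start site lay 1 of 12 (8.33%), against 19.4%. The 10 peaks on chromosome 8 lay upstream of the start site they name, a position that the crossed start sites fix.

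Repeats were annotated at the centre of 4 of the 12 peaks (33.3%, 13.8 to 60.9), against 54.0% of all other peaks. LTR elements were at 2 of 12 peaks (16.7%, 4.70 to 44.8), against 26.6% of all other peaks. Both were of the ERVL-MaLR family, which was at 8.96% of all other peaks, a value within the same interval. L1 and ERVK elements, the repeats at 16.3% and 13% of all other peaks, were at 0 of 12, which allows up to 24.2% for each. Repeats were at 8 of 17 peaks of type VI collagen genes (47.1%) and at 7 of 20 peaks of laminin genes (35.0%).

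The base content of the 12 peaks had a median of 51.9% GC, against 49.1%, and 15.0 CpG per 1000 bp, against 12. NFI factors, of which Nfix is studied with Setdb1 in BG, bind the palindrome of TTGGCA, and a single copy of TTGGCA on either strand was sought. It was found in 3 of 12 peaks (25%, 8.89 to 53.2), against 29.1% of all other peaks. The copies are shown on the plus strand with the match in capitals.
Col4a4 intron 13, chr1:82529033-82529074: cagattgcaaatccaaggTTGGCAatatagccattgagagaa
Col4a1 exon 13 peak, chr8:11241453-11241494: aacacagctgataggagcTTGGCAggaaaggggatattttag
Col4a2 intron 3, chr8:11320915-11320956: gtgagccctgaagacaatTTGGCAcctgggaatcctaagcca
Col4a2 intron 3, chr8:11320999-11321040: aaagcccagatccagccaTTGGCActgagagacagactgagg
The last pair is from 1 peak, the one nearest the Col4a1 start. The shorter TTGGC, which these matches include, was in 8 of 12 peaks (66.7%), the same share as in all other peaks.

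**Figure D5:**
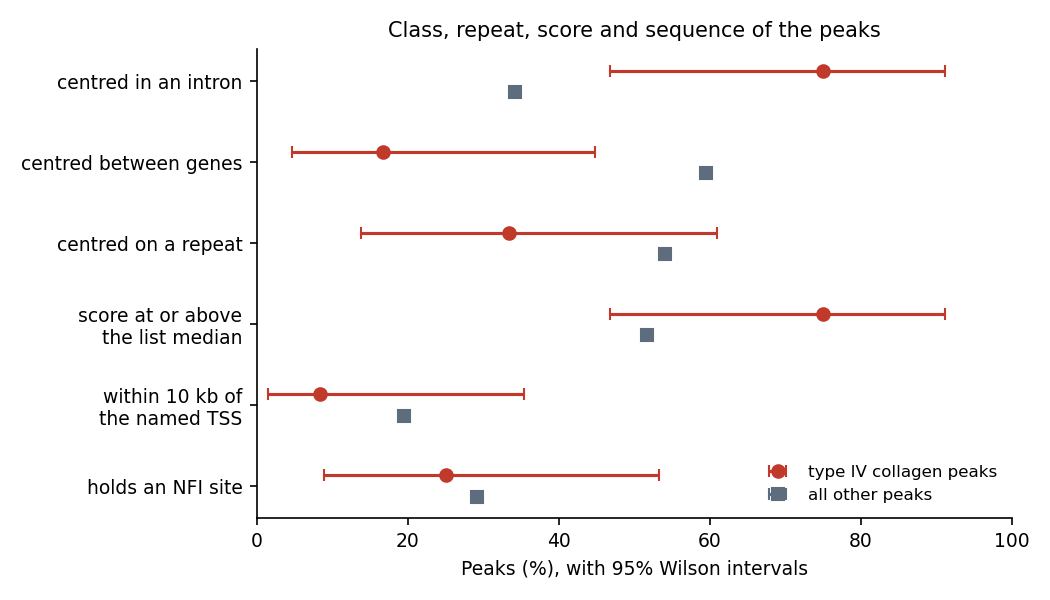
Share of peaks (x axis, percent, with 95% Wilson intervals) for the 12 type IV collagen peaks (red) and all other peaks (grey) by class, repeat, score, distance and a TTGGCA match. The row labelled as an NFI site counts any single TTGGCA on either strand, and the whole palindrome was not sought. The intron share is 75% against 34.2% and the TTGGCA share 25% against 29.1%.

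Other matrix genes gave the setting. All 6 type VI collagen genes were named by a peak, with 17 peaks in all, of which Col6a2 had 5, Col6a1 4 and Col6a6 4. Among 32 other collagen genes 23 were named, led by Col26a1 with 8 peaks, Col18a1 with 6, and Col5a1 and Col13a1 with 5 each. Only Col26a1 and Col18a1 of these reached the 6 peaks that name Col4a2. By position the order differed. Col4a2 held 6 peaks, while Col23a1 held 8, Col26a1 7, Col13a1 6 and Col18a1 3. Outside this list, Col6a6, Lama3 and the collagen receptor gene Ddr2 also held 6 each. Of 11 laminin genes 10 were named, with 20 peaks, led by Lama3 with 6, and 12 of 17 other basement membrane genes were named, led by Frem1 with 6. Of 19 genes of collagen modification and secretion 8 were named, with Serpinh1, which encodes the collagen chaperone HSP47, at 2 peaks. Collagen receptor genes were named in 6 of 8 cases, led by Itga11, an integrin chain, with 6 peaks. Degradation genes were named in 5 of 9, led by the inhibitor gene Timp3 with 3. For type IV collagen genes the count was 3 of 6, where 49.1% of all protein-coding genes and 75.2% of those of 100 to 320 kb were named.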

How the data were processed

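The deposited table is the authors' list of WT-specific H3K9me3 peaks. Per the submitters' processing notes and the methods, the authors aligned reads to mm10 with Bowtie2 2.2.8, kept the best location of multiply matching reads and called peaks with HOMER 4.10.1. The deposited score, of unstated scale, and the deposited positions, classes, repeats and distances, which are other values, were used as given. Reads that match several places make peaks on repeats less certain. Which background the peak call used (input, mutant BG or both) was not given in the sources.

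A peak's centre was set beside RefSeq GRCm38.p6. Of 34673 peaks, 34600 lay on chromosomes 1 to 19, X and Y, and the recomputed nearest gene was the authors' for 85.0%. Shares have 95% Wilson and densities exact Poisson intervals (scipy 1.17.1). The TTGGCA search, the nearest start site search and the Wilson intervals were tested on simulated data. The counts of peaks per gene and class were not. Members and the 8 gene lists were chosen with earlier results of these data known. Besides genes the results turn on, the text names genes from the 3 with most peaks in each list, by name or position. It also gives the neighbours that peaks in the family name. Depth per sample is unknown. Alternatives changed which peaks count and how genes were assigned. A withheld sequence is not reported here.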

Additional observations from a re-analysis of the deposited data

How the results depend on the processing

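Counting peaks by gene body in place of the named gene gave 15 peaks and 5 genes with a peak. The intron share rose to 93.3%, which this rule favours by construction because it leaves out intergenic peaks. Adding 5 kb on either side also gave 5 genes. Keeping named peaks within 10 kb of the start site left 1 peak and 1 gene, with a repeat share of 0% and an intron share of 100%. Leaving out peaks on repeats set the repeat share to 0% by construction. Over all alternatives the count lay between 1 and 16 peaks and the median score between 7.06 and 9.31. A recomputed nearest start site and joining peaks under 1 kb apart gave the values of the report. Taking TTGGC in place of TTGGCA moved the share of peaks with a match to 66.7%. Genes of 100 to 150 kb, a class added after the values were seen, gave lower shares. At least 4 peaks in the body were found in 13.9%, against 21.2% in the wider class. For at least 6 the shares were 4.55% and 9.13%. In the family this class takes in Col4a1, Col4a2, Col4a3 and Col4a4, with 4, 6, 1 and 3 peaks in the body. Because it was picked with these values known, no conclusion is drawn from it. No paired analysis was possible because peaks carry no per-library value, and for that reason no replicate could be left out. With 12 peaks, the intervals are wide.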
